A study of Homo sapiens with 10 samples.

Results

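The H3K27ac landscape of 10 keratin genes was examined in SKBR3 and MDA-MB-453 cells, both HER2 breast cancer lines, in the presence and absence of TWEAK. The genes were the 4 luminal keratins KRT7, KRT8, KRT18 and KRT19, the 4 basal keratins KRT5, KRT6A, KRT14 and KRT17, and KRT80 and KRT81, which were kept apart. They are 10 of 19962 protein-coding genes and were chosen by name for their place in epithelial biology. The window of each gene was its GENCODE body (release 44, hg38) plus 10 kb on each side, and every peak that touched a window was taken. SKBR3 and MDA-MB-453 cells had 2 untreated and 2 TWEAK libraries each, which gave 8 peak lists. All cells were starved in optimem for 8 h, and the treated ones then received TWEAK at 10 ng/ml for 48 h, renewed after 24 h. Both are established lines, so that 2 libraries of a group are separate ChIP experiments on 1 line and not separate tumours. The 1 input sample of each line had no peak list and was not analysed here.

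Keratins form the intermediate filaments of epithelial cells from obligate pairs of an acidic type I and a basic type II chain. In the mammary gland, the inner luminal cells carry the simple keratins KRT7, KRT8, KRT18 and KRT19, and the outer basal cells carry the stratified keratins KRT5, KRT14 and KRT17. H3K27ac is an acetyl mark on histone H3 at active promoters and enhancers. TWEAK is a cytokine of the tumour necrosis factor family that binds the receptor Fn14 and can signal through NF-κB, and through JNK to AP-1. The authors reported non-canonical NF-κB activation by TWEAK in all their lines, but JNK induction only in the triple-negative ones.

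The lists held between 43684 and 51687 peaks in SKBR3 and between 36148 and 37813 in MDA-MB-453, covering 92.1 to 105.7 Mb and 70.5 to 72.1 Mb. The longest list was SKBR3 TWEAK replicate 2. The share of protein-coding genes with a peak within 1 kb of the canonical start site was 53.8% to 55.7% in SKBR3 and 55.5% to 56.3% in MDA-MB-453. ERBB2, which encodes HER2, and 4 of 4 luminal transcription factors (GATA3, FOXA1, TFAP2A and SPDEF) had a promoter peak in all 8 lists, as did 4 of 5 epithelial markers. The other epithelial marker, CDH1 (E-cadherin), had one in 0 of 4 SKBR3 and 4 of 4 MDA-MB-453 lists. Of 5 basal or myoepithelial markers, 0 had a promoter peak in all 8 lists. TRIM29 had one in 4 of 4 SKBR3 lists alone. TP63 had one in 1 SKBR3 and 4 MDA-MB-453 lists, ACTA2 in 3 MDA-MB-453 lists, and OXTR and MYLK in 0 lists. Of 3 mesenchymal markers, ZEB1 had a promoter peak in 3 SKBR3 and 4 MDA-MB-453 lists, and VIM and FN1 in 0 lists. Markers of blood and endothelium had no promoter peak in any list (0 of 3). A gene without a promoter peak could still have peaks within 10 kb of its body. Mean lengths in SKBR3 and MDA-MB-453 were 13.8 and 0 kb for PTPRC, 6.32 and 1.99 kb for PECAM1, and 2.64 and 1.09 kb for CD3E. No reads were used here, so the depth of the libraries is unknown, and in bulk cells fewer acetylated cells and less acetylation per cell cannot be told apart.

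To compare luminal with basal keratins, the promoter of each gene, taken as 1 kb on either side of its canonical start site, was first scored for a peak. All 4 luminal keratins had a promoter peak in all 8 lists. Over all protein-coding genes this held for 47.9%. Among the basal keratins, KRT5, KRT6A and KRT14 had a promoter peak in 0 lists, against 37.3% of all genes. KRT17 had one in SKBR3 TWEAK replicate 2 alone, 817 bp wide and at percentile 1.5 of that list. The percentile is the rank of a peak by score, as a percentage of the peaks in its list, with tied peaks at their mean rank. The score follows −log10 of the authors' q-value, so that 100 is the strongest peak. KRT80 had a promoter peak in all 8 lists and KRT81 in 0.

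The gap between the sets was also wide in length. The median luminal window had 25.5 and 23.7 kb under peaks in untreated SKBR3 cells and 25.1 and 24.7 kb after TWEAK. The median basal window had 0.493 and 0.552 kb, and then 0.904 and 1.24 kb, in the same lists. In MDA-MB-453 the luminal medians lay between 16.4 and 17.6 kb, and the 4 basal windows held no peak in any list. The sets did not overlap in any library, since the shortest luminal length was 7.10 kb and the longest basal length 2.76 kb.

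**Figure D1:**
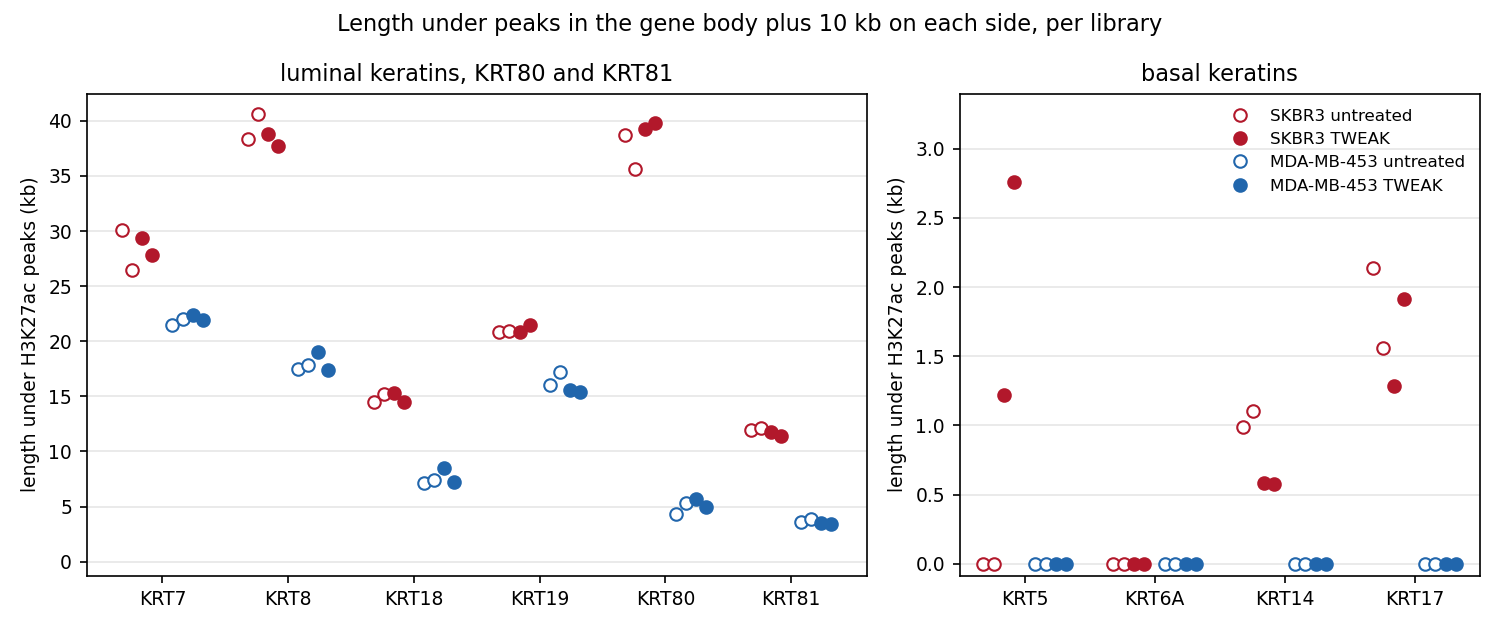
Length under H3K27ac peaks (kb) in the window of each keratin gene, 1 point per library, SKBR3 in red and MDA-MB-453 in blue, open for untreated and filled for TWEAK. The right panel has its own scale. Luminal windows hold between 7.10 and 40.6 kb, and basal windows at most 2.76 kb, all of it in SKBR3.

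**Figure D2:**
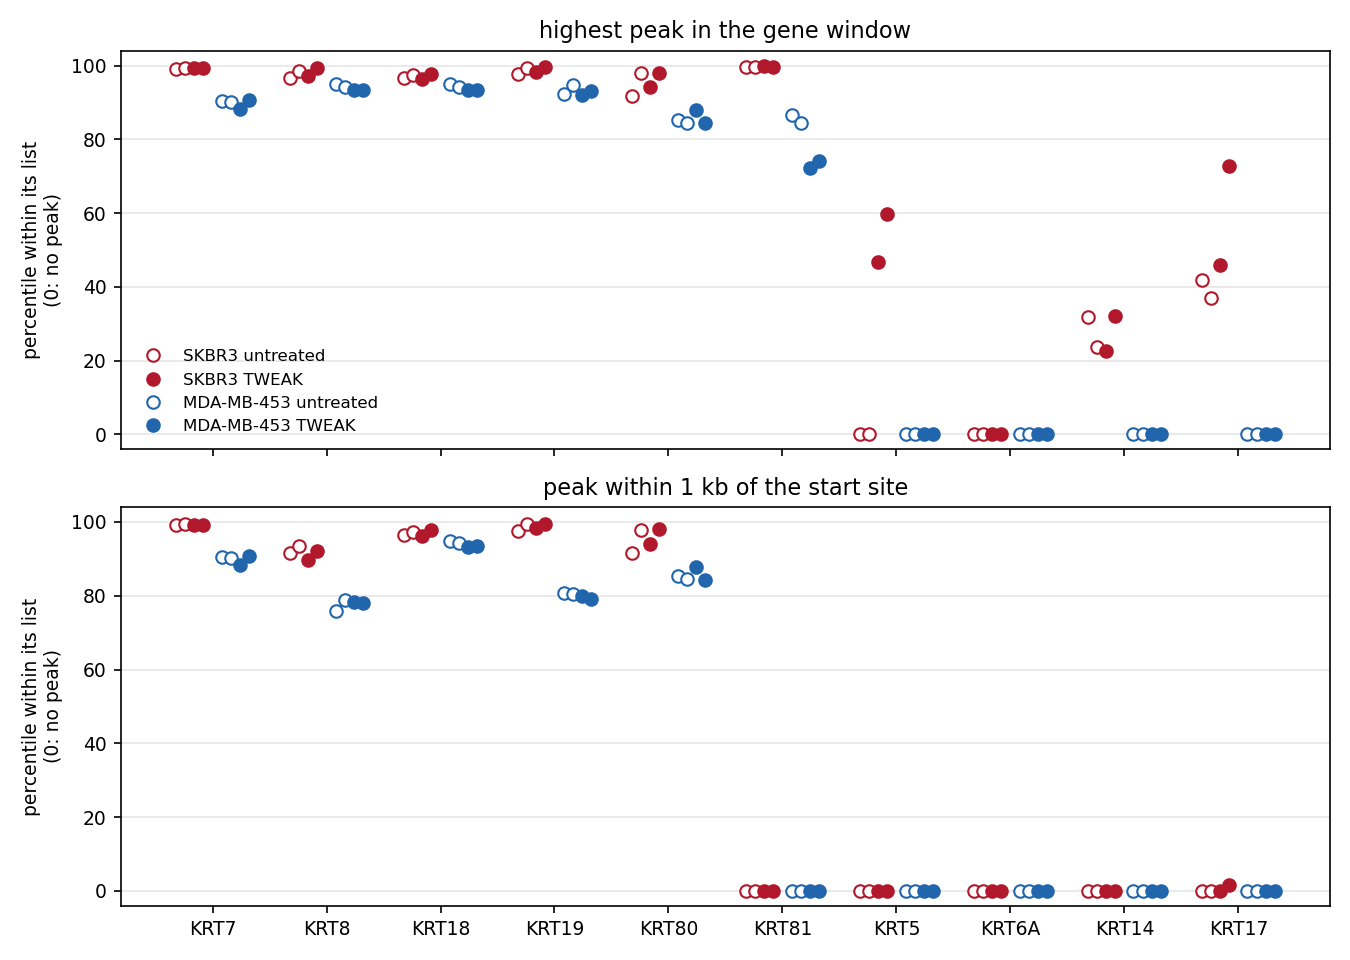
Percentile within its list of the strongest peak in the window (top) and of the peak within 1 kb of the start site (bottom), 1 point per library, with 0 where there is no peak. The luminal keratins and KRT80 sit high in both panels, KRT81 is high only in the upper one, and the basal keratins have 1 promoter peak in all, in a SKBR3 TWEAK list.

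KRT7 (type II, typical of glandular epithelium; chr12:52232520-52252186, plus strand) lay under the broadest luminal peak. Its promoter peak was 26.9, 25.7, 25.1 and 25.5 kb wide in the SKBR3 libraries (untreated 1 and 2, TWEAK 1 and 2) and 21.1, 21.1, 21.5 and 21.0 kb wide in the same order in MDA-MB-453. Among all peaks of a list, that width ranked at percentile 99.8 in each SKBR3 list and 99.9 in each MDA-MB-453 list. By score, the same peak ranked at 99.2 to 99.4 in SKBR3 and 88.2 to 90.7 in MDA-MB-453. The lines thus did not overlap in score rank, while in both of them the gene body was nearly all under the peak (at least 98.0%).

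KRT8 (type II; chr12:52897187-52949954, minus strand) and its partner KRT18 (type I; chr12:52948871-52952906, plus strand) are neighbours that point away from each other, and their windows share 1 block of peaks. KRT18 is the type I gene that sits in the type II cluster. That block over the KRT18 start site spanned 13.6 to 15.3 kb in SKBR3 and 7.10 to 8.46 kb in MDA-MB-453. Without TWEAK it ranked at percentiles 96.5 and 97.3 in SKBR3 and 94.9 and 94.3 in MDA-MB-453, and with TWEAK at 96.2 and 97.8 against 93.3 and 93.5. The lowest SKBR3 value stood above the highest of MDA-MB-453.

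The KRT8 promoter itself ranked at 91.5, 93.5, 89.8 and 92.1 in SKBR3 (untreated 1 and 2, TWEAK 1 and 2) and at 76.0, 78.9, 78.3 and 78.1 in MDA-MB-453. A further region lay 15.2 to 23.6 kb upstream of that start, around another annotated start of KRT8. It ranked at 95.8, 98.4, 97.2 and 99.2 in SKBR3 and at 65.5, 67.0, 59.4 and 58.3 in MDA-MB-453. Of the peaks at KRT8 and KRT18, those at this upstream region differed most between the lines.

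The 300 bases at this upstream KRT8 start (chr12:52926420-52926719, minus strand) and at the KRT5 start (chr12:52520345-52520644, minus strand) are shown because the first lay under a peak in 8 of 8 lists and the second in 0. Both come from RefSeq (GRCh38.p14), whose promoter table held 2 of the 10 genes. Each runs from 250 bases before to 50 bases after the start.
KRT8 promoter: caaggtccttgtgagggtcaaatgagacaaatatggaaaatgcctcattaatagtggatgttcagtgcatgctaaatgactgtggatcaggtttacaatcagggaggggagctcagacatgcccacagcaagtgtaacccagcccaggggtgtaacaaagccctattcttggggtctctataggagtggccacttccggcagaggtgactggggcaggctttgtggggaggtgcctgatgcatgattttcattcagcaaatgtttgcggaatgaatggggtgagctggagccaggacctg
KRT5 promoter: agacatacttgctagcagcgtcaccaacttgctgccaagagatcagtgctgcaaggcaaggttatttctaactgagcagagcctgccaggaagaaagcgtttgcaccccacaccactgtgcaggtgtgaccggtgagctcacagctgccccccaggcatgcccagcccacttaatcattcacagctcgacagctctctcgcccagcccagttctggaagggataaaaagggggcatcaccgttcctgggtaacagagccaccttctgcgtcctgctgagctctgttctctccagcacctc
Both strands were searched for 6 motifs. These were the AP-1 element spelled TGANTCA, the AP-2 element spelled GCCNNNGGC, the GATA element spelled AGATAA, the forkhead element spelled TGTTTAC, the TATA box spelled TATAAA and the consensus of NF-κB. Neither window held a match to any of them. Of 34796 RefSeq promoters of this length, 7.7% held AP-1, 23.2% AP-2, 10.4% GATA, 3.4% forkhead, 11.6% the TATA box and 5.9% NF-κB.

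KRT19 (type I, the keratin without a tail domain; chr17:41523617-41528308, minus strand) had a promoter peak of 23.3 to 24.2 kb in SKBR3 and 9.77 to 13.6 kb in MDA-MB-453. In SKBR3 it ranked at 97.6 and 99.4 in untreated cells and at 98.3 and 99.6 after TWEAK. The same promoter ranked lower in MDA-MB-453, at 80.7 and 80.4, and at 80.1 and 79.1 after TWEAK. There the strongest peak of the window was a separate one upstream of the start, at 92.1 to 94.7. In both lines the peaks over the KRT19 start reached into KRT15, which encodes a basal keratin and lies next to KRT19. The KRT15 promoter was under a peak in 4 of 4 SKBR3 and 0 of 4 MDA-MB-453 lists.

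**Figure D3:**
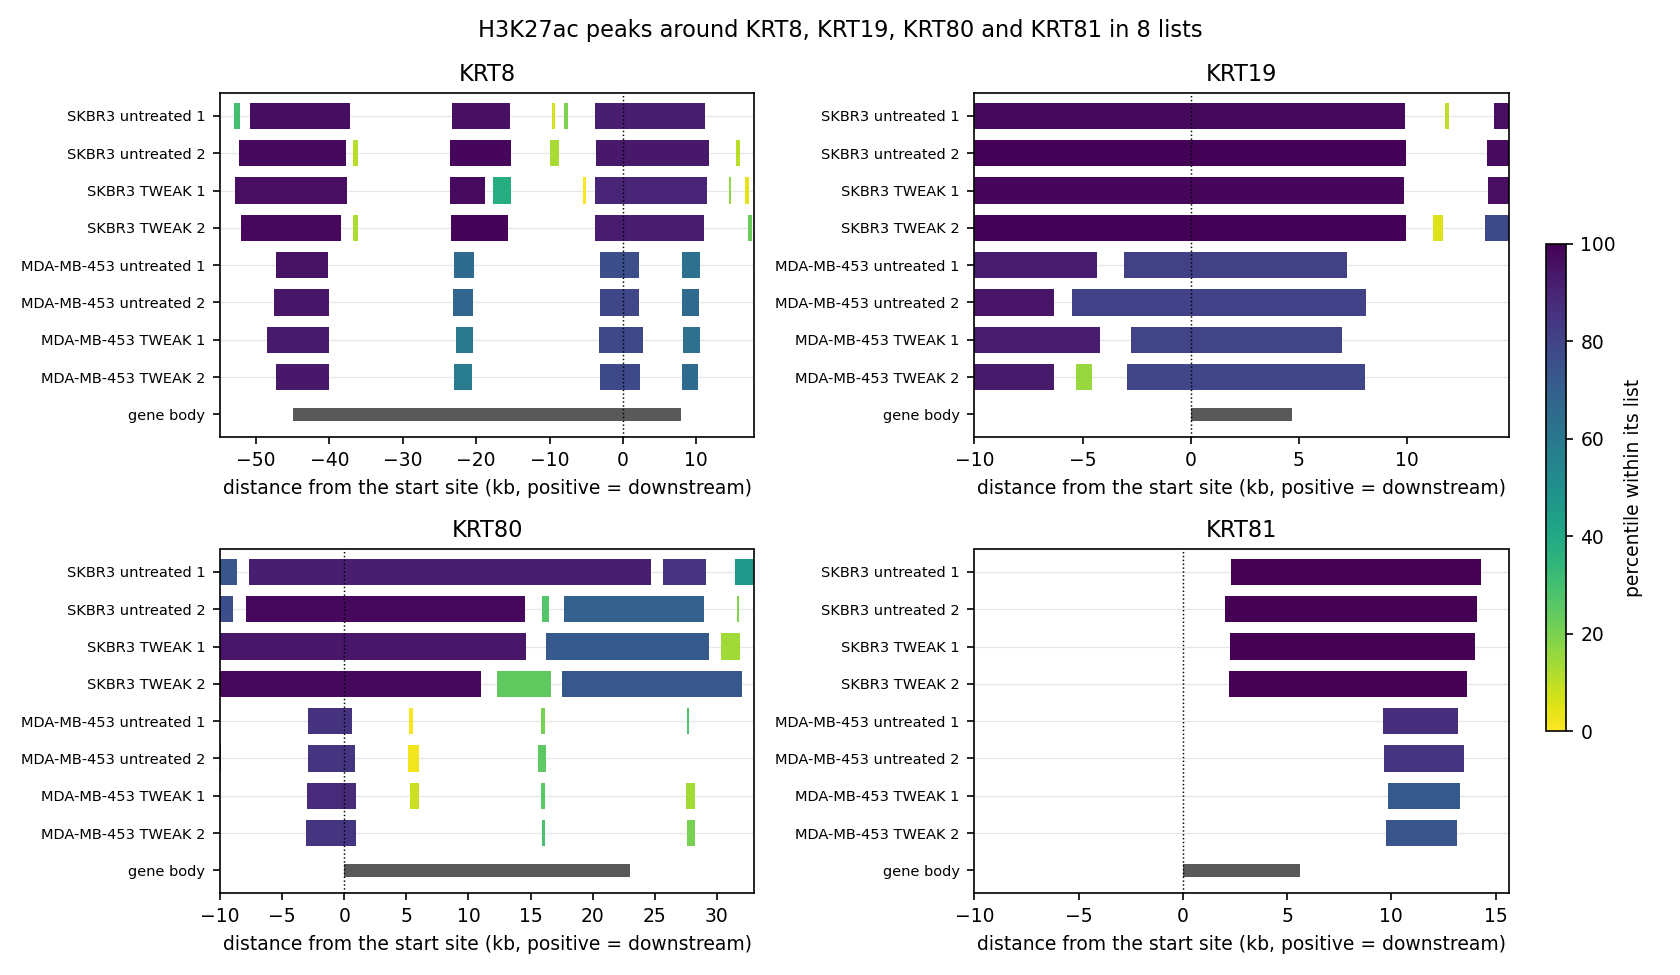
Peaks around KRT8, KRT19, KRT80 and KRT81 by distance from the canonical start site (kb, positive downstream), 1 row per library, coloured by percentile within the list, with the gene body in grey. SKBR3 blocks are longer in all 4 panels, and at KRT81 no block reaches the start site.

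KRT80 (type II, a keratin of differentiating epithelia found at the cell margin; chr12:52168996-52192014, minus strand) differed most in length between the lines. Its window had 38.7 and 35.6 kb under peaks in untreated SKBR3, 39.3 and 39.8 kb after TWEAK, 4.32 and 5.31 kb in untreated MDA-MB-453, and 5.68 and 4.95 kb after TWEAK. Peaks thus filled 82.8% to 92.5% of the window in SKBR3 and 10.0% to 13.2% in MDA-MB-453. The promoter peak was 22.4 to 32.4 kb wide in SKBR3 and 3.53 to 4.07 kb in MDA-MB-453. Its percentile differed less, at 91.7, 97.9, 94.1 and 98.0 in SKBR3 and 85.4, 84.5, 87.9 and 84.4 in MDA-MB-453.

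KRT81 (a type II hair keratin; chr12:52285913-52291534, minus strand) held the highest ranked peak of the 10 windows in SKBR3, yet none at its own start site. The percentile was 99.7 and 99.6 in untreated SKBR3, 99.8 and 99.7 after TWEAK, 86.7 and 84.4 in untreated MDA-MB-453, and 72.3 and 74.1 after TWEAK. In SKBR3 this peak began 2.04 kb downstream of the start and ran to 14.3 kb, over the 3′ part of KRT81 and into the long annotated body of KRT86. In MDA-MB-453 it lay 9.61 to 13.5 kb downstream, past the end of KRT81. The promoter of KRT81 has a near-identical copy at KRT86 (933 bp at 98.7% identity), and how reads with several matches were treated is not given in the sources used here.

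Taken over the 142.5 kb from KRT80 to KRT81, which also holds KRT7, peaks covered 60.4% to 65.3% of the span in SKBR3 and 27.7% to 29.4% in MDA-MB-453. From KRT8 to KRT18 the shares were 49.8% to 53.6% and at most 25.1%. The basal span from KRT14 to KRT17 had 3.0% to 5.0% in SKBR3 and 0% in MDA-MB-453.

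To test the lines against each other, the length under peaks was fitted for 16263 genes with a peak in at least 2 lists, as log2(bp + 1000) with limma and Benjamini-Hochberg adjustment over all genes tested. On that scale the median gene was higher in SKBR3 by 0.10. KRT80 was higher by 2.70 (SE 0.08, 4 libraries against 4, limma adjusted p = 1.15e-06), or 6.50-fold. KRT81 was higher by 1.48 (SE 0.06, limma adjusted p = 3.08e-06) and KRT8 by 1.07 (SE 0.05, limma adjusted p = 5.49e-06). KRT18 was higher by 0.89 (SE 0.07, limma adjusted p = 4.97e-05). KRT19 was higher by 0.37 (SE 0.05, limma adjusted p = 0.000774) and KRT7 by 0.36 (SE 0.06, limma adjusted p = 0.00144).

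These 6 genes had a peak in all 8 lists, and all 6 were called higher in SKBR3. Over all genes tested 40.5% were called higher and 29.2% lower. After quantile normalization, which gives every library the same distribution of lengths, KRT7 turned to −0.33 (limma adjusted p = 0.000647) and KRT19 to −0.25 (limma adjusted p = 0.00608), and the higher share of all calls went from 58.1% to 45.0%. Within the gene body alone KRT7, KRT18 and KRT19 were no longer called (limma adjusted p from 0.139 to 1), since peaks filled 100% of these bodies in SKBR3 and at least 86.1% in MDA-MB-453. KRT8, KRT80 and KRT81 kept their call under all 18 alternatives. For KRT81 the gene-body call was built in. Peaks covered 59.2% to 63.8% of its body in SKBR3 and 0% in MDA-MB-453, so it passed the filter through SKBR3 alone.

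**Figure D4:**
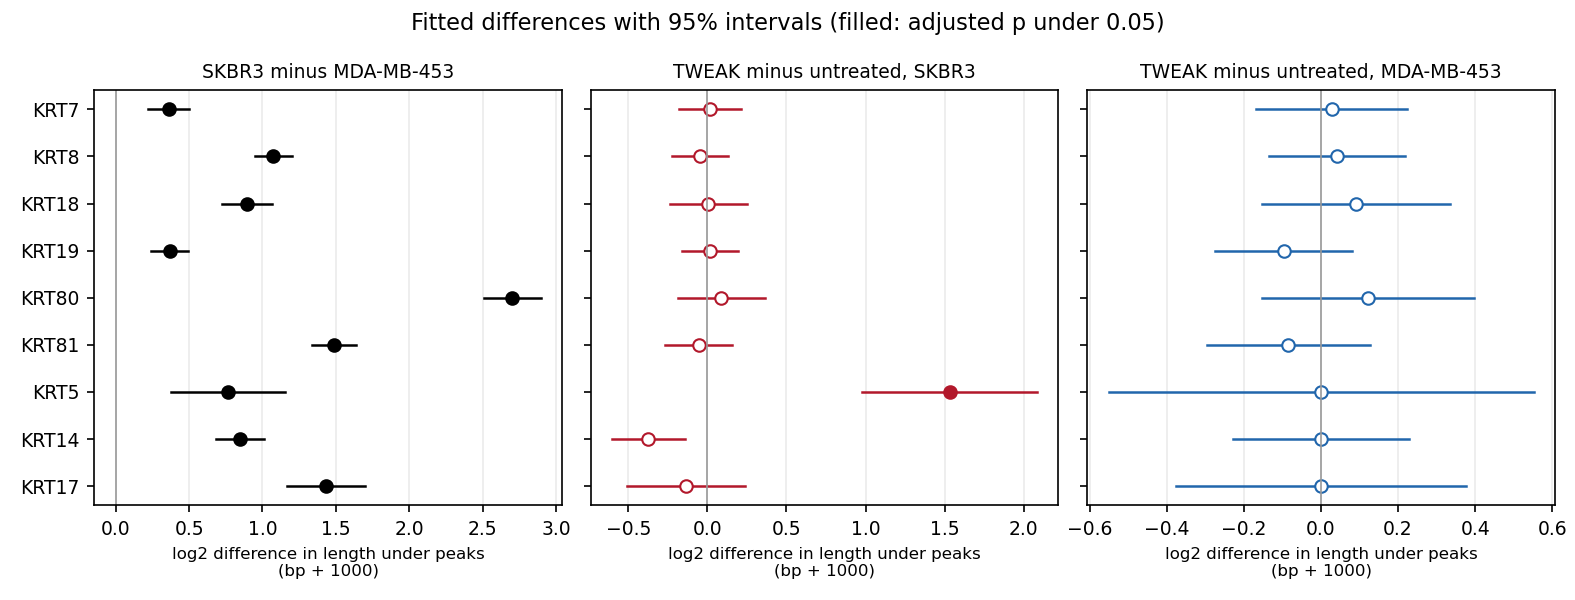
Fitted differences in length under peaks for the 9 keratins tested, on the log2(bp + 1000) scale with 95% intervals from limma, for line (left), TWEAK in SKBR3 (middle) and TWEAK in MDA-MB-453 (right). Each panel has its own scale. KRT80 leads the left panel at 2.70, and KRT5 in SKBR3, which passed the filter through the TWEAK lists alone, is the only filled point in the other panels.

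By rank of the strongest peak, the 4 SKBR3 lists all stood above the 4 MDA-MB-453 lists for 8 of the 10 genes, and for 27.6% of all protein-coding genes. The exact two-sided permutation test gave p = 0.0286 for each of the 8, the smallest p that 4 against 4 allows. The exceptions were KRT6A, with no peak, and KRT5. KRT14 and KRT17 were apart because MDA-MB-453 had no peak there, which counts as 0 (mean differences of 27.6 and 49.4 percentile points). The strongest peak of the KRT8 window in MDA-MB-453 was the KRT18 promoter peak, so KRT8 and KRT18 are not separate counts. The mean difference was 20.3 percentile points for KRT81, 9.87 for KRT80, 9.37 for KRT7, 5.63 for KRT19, 3.85 for KRT8 and 2.99 for KRT18. Ranked by the authors' fold enrichment in place of the score, the lines overlapped at KRT8, KRT18 and KRT19 and stayed apart at 5 genes (27.1% of all genes), and among peaks with q under 1e-05 they stayed apart at 3 (KRT7, KRT19 and KRT81; 17% of all genes). At KRT18 the fold enrichment itself was 13.1 to 17.9 in SKBR3 and 17.8 to 22.5 in MDA-MB-453, so that the longer block of SKBR3 was not the more enriched one.

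The basal keratins had their few peaks in SKBR3, away from the start sites except for the narrow KRT17 promoter peak of TWEAK replicate 2. KRT6A, a keratin induced on wounding (chr12:52487176-52493257, minus strand), had no peak in any list. KRT14, the type I partner of KRT5 (chr17:41582279-41586895, minus strand), had 1 region 6.76 kb or more downstream of its start, outside the gene. It covered 986 and 1104 bp in untreated SKBR3 and 584 and 575 bp after TWEAK, at percentiles of 31.9, 23.8, 22.7 and 32.2. MDA-MB-453 had no peak there. The window of KRT9, another keratin, gave the same mean length (0.81 kb in SKBR3) and the same fitted values, so the region cannot be assigned to KRT14 alone.

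KRT17 (type I, also induced on wounding; chr17:41619442-41624842, minus strand) had 2137 and 1560 bp under peaks in untreated SKBR3 and 1287 and 1912 bp after TWEAK. The region found in all 4 SKBR3 lists lay 10.9 to 12.1 kb downstream of its start and was the promoter peak of KRT16, a keratin of the same wound response. It ranked at 35.7 and 36.9 in untreated cells and at 46.0 and 72.9 after TWEAK, so the TWEAK lists were both higher (exact permutation p = 0.333 for the strongest peak of the window, the smallest p that 2 against 2 allows). Sequences around the starts of KRT14 and KRT17 recur on chromosome 17 (1946 bp at 94.4% identity and 2027 bp at 94.3%), and that of KRT6A at KRT6B (1241 bp at 92.7%). KRT5, KRT14 and KRT17 entered the line fit through the SKBR3 lists alone, so a difference was built in, and its size rests on the 1000 bp added. It was 0.77 (SE 0.16) for KRT5, 0.85 (SE 0.07) for KRT14 and 1.44 (SE 0.11) for KRT17 on the log2 scale.

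**Figure D5:**
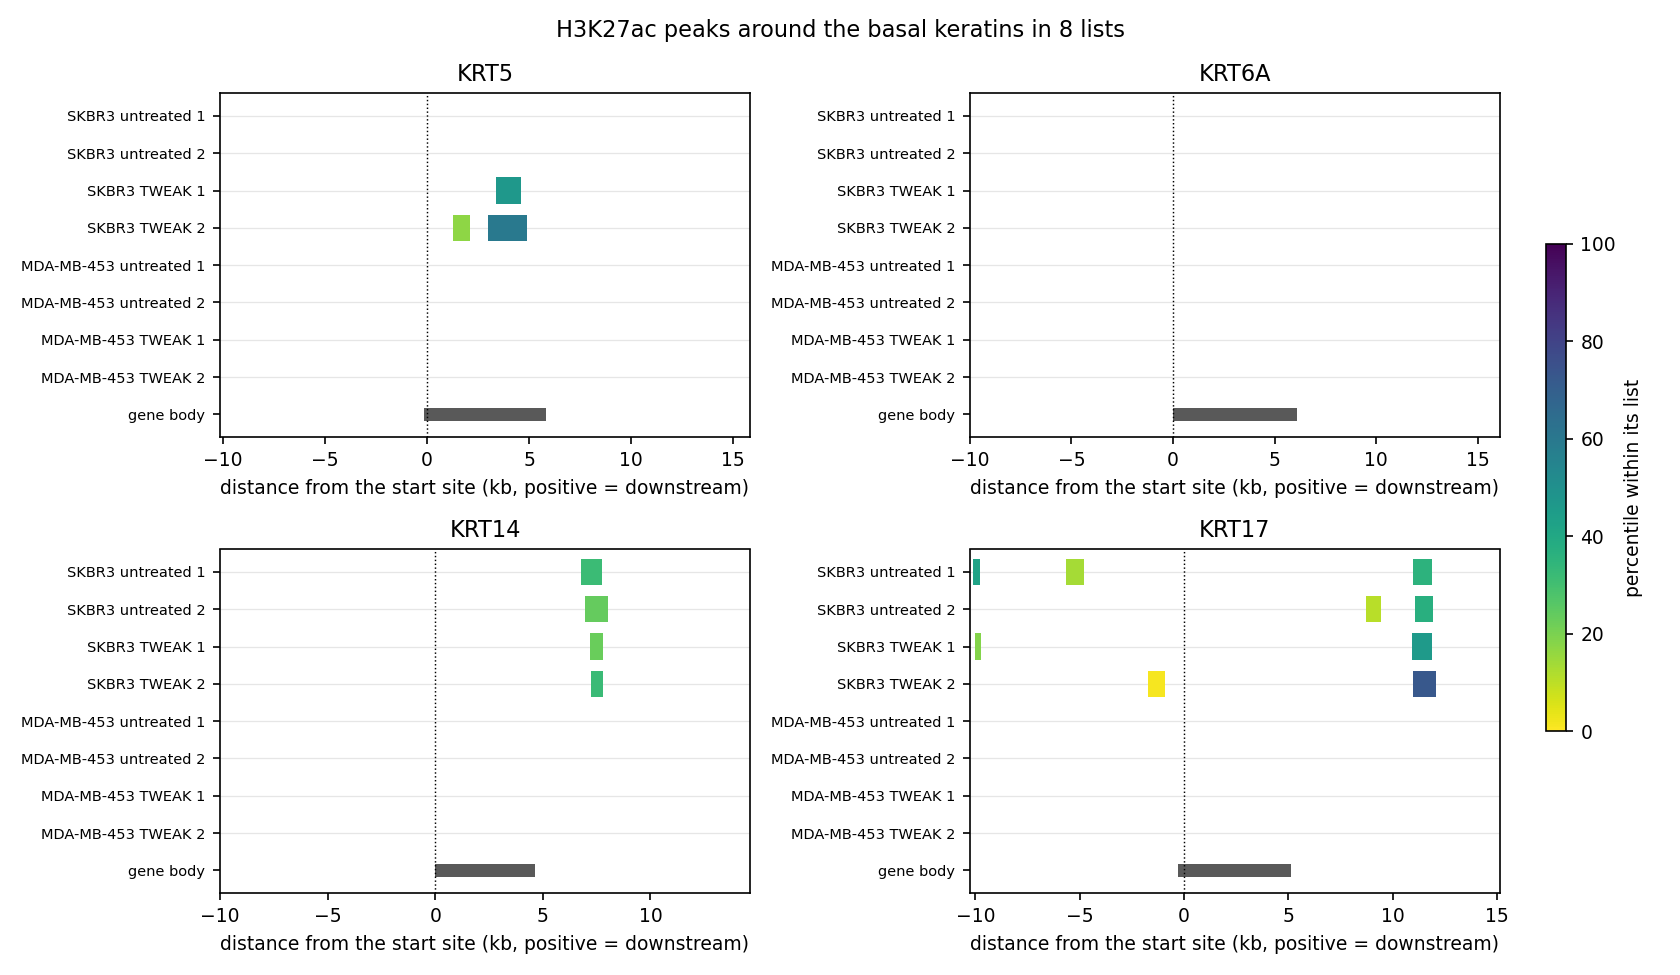
Peaks around the basal keratins by distance from the canonical start site (kb, positive downstream), 1 row per library, coloured by percentile within the list, with the gene body in grey. All peaks are in SKBR3 rows, and KRT5 has peaks in the TWEAK rows alone.

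To ask whether TWEAK moved any keratin, treated and untreated libraries of each line were compared in the same fit. KRT5, the type II keratin of basal cells (chr12:52514575-52520530, minus strand), had 0 and 0 bp under peaks in untreated SKBR3, 1223 and 2760 bp after TWEAK, and 0 bp in the 4 MDA-MB-453 lists. It passed the filter through the TWEAK lists alone, so a TWEAK difference was built in, and the fit is given as a description. The fit pools the spread over all groups, and only the SKBR3 TWEAK group varied at KRT5, so its p-values do not measure that group's spread. The fitted difference was 1.53 on the log2(bp + 1000) scale (limma adjusted p = 0.0352) and 3.07 with 250 bp added in place of 1000, so that its size rests on that choice. The adjusted p rose above 0.05 with the replicate number as a block (0.0690 by limma), in the gene body alone (0.0523), with 25 kb on each side (0.116), without the filter (0.0914) and without each of the 6 other libraries in turn (0.0943 to 0.125). None of the other 8 genes tested was called, where 1.27% of all genes were called higher and 0.283% lower.

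The KRT5 peaks lay in the gene body. The region in both TWEAK lists was 2.98 to 4.89 kb downstream of the start (chr12:52515508-52517413, exons included) and ranked at 46.7 and 59.7. Replicate 2 had another of 854 bp, 1.26 kb downstream. Replicate 2 is also the longest list, and with all lists cut to the length of the shortest both TWEAK lists still held a KRT5 peak. The difference between the TWEAK effects of the lines was not called for KRT5 (limma adjusted p = 0.206). This interaction was called for 0% of all genes, with 1514 of 16263 at an unadjusted p under 0.05.

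The middle 300 bases of the KRT5 region that both TWEAK lists shared are shown as the sequence under the basal keratin peak found in the TWEAK lists alone. They are read from hg38 on the plus strand (chr12:52516228-52516527), with motif matches in capitals.
KRT5 TWEAK region: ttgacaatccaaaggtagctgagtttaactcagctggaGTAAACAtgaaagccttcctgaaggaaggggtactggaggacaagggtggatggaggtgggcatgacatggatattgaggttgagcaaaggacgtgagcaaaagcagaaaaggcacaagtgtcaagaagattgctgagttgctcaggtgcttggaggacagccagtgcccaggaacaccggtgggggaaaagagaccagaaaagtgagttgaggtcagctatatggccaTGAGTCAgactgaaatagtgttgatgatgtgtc
The KRT5 window held 1 AP-1 match, at bases 268 to 274, and 1 forkhead match on the reverse strand, at bases 39 to 45. The NF-κB consensus was not in this window, and matched once elsewhere in the 1223 bp that both TWEAK lists shared. In windows of this length at the middle of 62103 SKBR3 regions, AP-1 was found in 13.9%, forkhead in 5.9% and NF-κB in 5.5%. A match is a string of letters and does not show binding.

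The luminal keratins gave narrow intervals around no change. In SKBR3 the TWEAK difference was 0.02 for KRT7 (95% interval −0.18 to 0.21), −0.04 for KRT8 (−0.22 to 0.13), 0.01 for KRT18 (−0.24 to 0.25) and 0.02 for KRT19 (−0.16 to 0.20) on the same log2 scale. KRT80 gave 0.09 (−0.19 to 0.36) and KRT81 −0.05 (−0.26 to 0.16). KRT14 gave −0.37 (−0.60 to −0.14, unadjusted p = 0.00688 and adjusted p = 0.137 by limma), and KRT17 −0.14 (−0.51 to 0.24). The fit pools the spread over all groups, and both genes had 0 bp in every MDA-MB-453 list. Those lists added no spread, so these intervals and p-values do not measure the spread between SKBR3 libraries alone. In length, both TWEAK lists were above both untreated ones for KRT5 and KRT80, and below for KRT14 and KRT81. That is 2 of 10 genes each way, where 14.5% of all genes were above and 12.3% below.

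In MDA-MB-453 TWEAK gave no call at any of the 9 genes, and none among all genes tested (0%) by limma, with 440 of 16263 genes and none of the keratins at an unadjusted p under 0.05. The intervals of the 6 genes with peaks there lay between −0.30 and 0.40. The KRT81 peak ranked lower in both TWEAK lists of this line, as given above, by 12.4 percentile points on average (exact permutation p = 0.333).

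Presence was then compared over regions merged from the peaks of a line. In SKBR3 the windows held 29 regions, of which 12 were in all 4 lists and 12 in 1 list. Over all SKBR3 regions 49.6% were in all 4 lists. A region was counted as gained when both TWEAK lists and no untreated list held it, and as lost in the reverse case. There were 2 gained, the KRT5 region and one of 886 bp 16.7 kb downstream of the KRT8 start (percentiles 3.9 and 22.8), and 1 lost, of 1320 bp and 8.68 kb upstream of it (6.9 and 13.0). Over all SKBR3 regions 4.61% were gained and 1.4% lost. In MDA-MB-453 11 of 13 regions were in all 4 lists, against 72.8% of all regions of that line. There were 0 gained and 0 lost, where 1.33% of all regions were gained and 1.3% lost.

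The promoter ranks of single keratins were then set beside those of all other genes over 1 Mb away. Over the 8 lists, the gene nearest to KRT7 was TFAP2C, a transcription factor of the AP-2 family, at a distance of 2.09 percentile points. LARP1 was nearest to KRT8 (4.47) and FBXO32 to KRT19 (3.67), and MBTD1 and UTP18 were tied as nearest to KRT18 (2.38). These 8 values share their libraries and the split between lines.

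Among 44 other keratin genes, 29 could be tested, of which 20 were called longer in SKBR3, 4 shorter and 5 not called, against 40.5% and 29.2% of all genes. Of these, 8 longer genes (KRT1 among them) and 2 shorter ones (KRT82 and KRT20) passed the filter through the longer line alone. Their calls were thus built in, which leaves 12 longer and 2 shorter of 17 tested. Neighbouring windows can hold the same peak, so these counts are not of separate peaks. In SKBR3 the strongest KRT15 peak was the KRT19 promoter peak, and the KRT16 promoter peak lay in the KRT17 window. KRT9 had the same fitted values as KRT14, and the peaks at KRT7 and KRT81 overlapped KRT86. On the log2(bp + 1000) scale the largest gains in SKBR3 were at KRT13, a keratin of mucosal stratified epithelium (12.2 ± 0.75 kb against 0.18 ± 0.23 kb, SD, n = 4 each), KRT79, KRT23 and KRT1. KRT12, the keratin of the cornea, went the other way (0.02 ± 0.03 kb against 8.11 ± 0.07 kb), ahead of KRT32, KRT82 and KRT20. KRT79, KRT1, KRT12, KRT32, KRT82 and KRT20 had a promoter peak in 0 lists. The strongest peak of the KRT79 window had the percentile range of the KRT4 promoter peak (76.0 to 88.7 in SKBR3, 5.9 to 23.7 in MDA-MB-453). A promoter peak was present in 0 of 8 lists at 35 of the 44. With TWEAK in SKBR3 KRT2 and KRT38 were called longer, and both are named here after their values were seen. KRT2 had 392 and 877 bp in untreated cells and 3262 and 6658 bp after TWEAK (limma adjusted p = 0.0379), and KRT38, a hair keratin, had 0 and 0 bp and then 2008 and 2847 bp. KRT38 had no peak in MDA-MB-453 and passed the filter through the TWEAK lists alone, so its call was built in as at KRT5.

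Of 12 genes that tie keratin filaments to the cell membrane, 10 could be tested and all 10 were called longer in SKBR3, against 40.5% of all genes. For PKP2 (plakophilin 2), which had no peak in MDA-MB-453, this was built in by the filter. The largest difference was at EVPL (envoplakin), 2.60 on the log2 scale, and the smallest DSP (desmoplakin) at 0.41. PKP2 was the only one called with TWEAK in SKBR3, with 1421 and 1559 bp in untreated cells and 2857 and 3804 bp after TWEAK (limma adjusted p = 0.0459). Its MDA-MB-453 lists, all without a peak, added no spread to that fit, so the p-value does not measure the SKBR3 spread alone.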

How the data were processed

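The 8 peak lists come from H3K27ac ChIP-seq, with 2 libraries per line and treatment. The authors trimmed the reads with Trimmomatic, aligned them to hg38 with Bowtie2, ran MACS2 on every library against its input, and filtered out blacklisted intervals with bedtools. Versions and calling options are not given in the sources used here. The deposited columns are a position, a whole-number score (10 times −log10 q), a fold enrichment ratio, −log10 of the p-value and −log10 of the q-value. The authors compared groups with DiffBind, which needs reads, so peak length and within-list rank were used in its place.

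Genes and canonical start sites came from GENCODE release 44. All 334329 peaks on chromosomes 1 to 22 and X lay within the hg38 chromosomes. The length under peaks in a gene window was tested as log2(bp + 1000) with limma 3.58.1 (R 4.3.3, trended eBayes) on 4 group means, for genes with a peak in at least 2 of 8 lists, with Benjamini-Hochberg adjustment and a threshold of 0.05. The fit was tested on simulated data. Ranks were compared with exact permutation tests (scipy 1.17.1). Near copies of the 1 kb on each side of a start site were sought with blastn 2.17.0.

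The 10 genes were named in full, with at most 4 other keratins per direction, and for each gene with a promoter peak the gene with the nearest promoter ranks (at KRT17 this rests on 1 list, and at KRT80 it has no symbol, so neither is named). The genes and lists were chosen with earlier results of these data known. Depth is unknown, so no counting interval is given.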

Additional observations from a re-analysis of the deposited data

Results flagged for a closer look

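The strongest peak in the KRT81 window had mean percentile differences of opposite sign with TWEAK in the 2 lines, 0.0642 in SKBR3 and −12.4 in MDA-MB-453, with both libraries of each group on the same side. The SKBR3 value gives no direction. The peak is near the top of every SKBR3 list, the lower TWEAK and the higher untreated percentile both round to 99.7, and the fold enrichment overlapped (22.0 and 25.3 untreated, 29.3 and 22.3 with TWEAK). Mean length under peaks was lower with TWEAK in both lines (differences of −470.5 and −270 bp). The difference in rank between the lines was not tested. In length, the interaction at KRT81 was 0.03 on the log2 scale (limma adjusted p = 0.985). No group of 4 libraries held an outlying library among the 30 examined, where chance alone is set to mark about 1 in 20.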

How the results depend on the processing

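Of the 9 genes tested, 9 were called longer in SKBR3 (40.5% of all genes), 3 of them built in by the filter, and 1 longer with TWEAK in SKBR3 (1.27% of all genes), also built in. Within gene bodies alone 4 of 7 genes tested were called longer in SKBR3, against 5236 of 14746 over all genes, and 0 with TWEAK. KRT5 and KRT81 are among the 4 and had no gene-body peak in MDA-MB-453, so their calls were built in. The TWEAK call, at KRT5, was also lost with peaks of q under 1e-05 (0 calls), with windows of 25 kb on each side (adjusted p = 0.116), without the filter on genes (0.0914) and with the replicate number as a block (0 calls, limma adjusted p = 0.0690), and leaving out 1 library at a time gave 0 calls each time. The adjusted p stayed under 0.05 with a pseudocount of 250 bp, which moved the value from 1.53 to 3.07, lists of equal size and quantile normalization. No value for KRT5 could be had at the stricter threshold or without either SKBR3 TWEAK library, since too few lists then held a peak. Without the filter KRT14 was called shorter with TWEAK in SKBR3 (limma adjusted p = 0.0117) and was the 1 gene called for the difference in TWEAK effect between lines (0.0489). Its MDA-MB-453 lists, all without a peak, added no spread to the fit, so these p-values do not measure the SKBR3 spread alone. Quantile normalization turned KRT7 to −0.33 and KRT19 to −0.25. The replicate block changed no other call at these genes, and same-numbered libraries correlated at 0.422 in SKBR3 and −0.012 in MDA-MB-453 over 2 pairs each. No label ties a number to a shared day or batch, and the numbers were read as names only. Over all genes, calls for TWEAK in SKBR3 numbered 252, against 419 at the stricter threshold, 106 with the replicate block and 0 to 832 with 1 library left out. It was 0 without untreated replicate 2 or TWEAK replicate 2, and 832 without TWEAK replicate 1. For TWEAK in MDA-MB-453 limma called 0 genes, and 35 at the stricter threshold, 13 without the filter and 3 in gene bodies alone.

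The lines were apart in rank at 8 genes (27.6% of all genes), at 5 by fold enrichment (27.1%) and at 3 at the stricter threshold (17%). KRT14 and KRT17, with no peak in MDA-MB-453, are among the 8 and the 5. SKBR3 regions numbered 2 gained and 1 lost, 0 and 0 at the stricter threshold, 1 and 0 in lists of equal size, and 2 to 6 gained and 1 to 5 lost when 1 library was left out. The 6 and 4 gained arose without TWEAK replicate 1 and replicate 2, and the 5 and 3 lost without untreated replicate 2 and replicate 1. In MDA-MB-453 1 region was gained when a peak had to cover at least 50% of it, and 0 to 1 were gained and 0 to 1 lost with 1 library left out. With 1 library left out, 1 list decides for its group, which makes a gain or loss easier anywhere. Over all SKBR3 regions 4.61% were gained and 1.4% lost at the main setting. The shares at the altered settings are not given, so these counts are not read as a result about keratins. Line comparisons within untreated or within TWEAK libraries, chosen after seeing the data, left 8 and 9 genes apart in rank. KRT14 and KRT17, and KRT5 in the TWEAK lists, are among them because MDA-MB-453 had no peak there. Fewer lists per line separate more easily, and the share over all genes is not given, so these counts are not read as a result. Lists without reads limit every comparison: a region missing from a list may lie just under the caller's threshold.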
